A study of Mus musculus with 4 samples.

Results

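Short deletions, those in which the listed allele lacks 1 to 20 bases of the reference genome, were examined in the expressed sequence of 2 mouse cancer cell lines. They were found by allele length alone: the reference allele had to be longer than the alternative allele by 1 to 20 bases. The lists held 114 such deletions among 6361 variants in MBT2 and 126 among 5445 in LM8, which is 240 of 11806 listed entries and 226 of 10545 distinct variants. In MBT2 they were annotated to 109 genes and in LM8 to 114 genes, on 20 chromosomes in each line. These genes include those with a deletion only upstream (12 deletions in MBT2, 15 in LM8) or downstream (22 and 21).

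MBT2, from bladder cancer, carries the clone label 63 in its sample labels, and LM8 derives from osteosarcoma; both come from C3H/HeN mice and were grown in culture with no treatment. Poly(A) RNA of each line was sequenced in 2 libraries as paired reads of 75 bases, and 1 joint variant list per line was deposited. The MBT2 medium was RPMI-1640 and the LM8 medium was MEM buffered by 24 mM HEPES, both with 10% serum, so medium and line cannot be told apart. The labels do not say whether the libraries of a line came from separate cultures. The p-values of the limma test between the lines thus measure only the spread between libraries, which may be technical. Those of Fisher's exact test measure the counting of reads or of listed variants, with no spread between libraries.

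At the short deletions the median depth was 52 and 55.5 reads in the MBT2 libraries and 46 and 40.5 reads in the LM8 libraries, against 68 and 73 reads and 62 and 61 reads over all listed sites. Intervals are exact 95% binomial (Clopper-Pearson) intervals; they cover counting error only, because amplification makes several reads of 1 molecule. In bulk RNA, a small share of cells that carry a deletion and little RNA from the allele that carries it cannot be told apart. The lists hold variants and no expression levels, so the tissue of origin could not be checked against its markers: 0 of 14 bladder epithelium genes carried a listed variant in MBT2, and 3 of 10 osteoblast genes did in LM8, none of them a short deletion.

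Short deletions arise most readily in runs of a single base and in other tandem repeats, where the copying strand can slip by a repeat unit. In the cell, mismatch repair corrects most such loops, and tumours that lose it gather deletions in long runs. Reverse transcription, amplification and alignment can shift the length of a run as well. In a coding exon a loss that is not a multiple of the codon length shifts the reading frame, whereas the 3′ untranslated region (UTR) of a messenger RNA tolerates changes of length without an effect on the protein.

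The sequences below show the kinds of site at which the deletions fell. The first and second sets are written 5′ to 3′ in the direction of the messenger RNA, from the GENCODE M21 transcripts. The first set holds long repeats of 3′ UTRs, with the repeat that lost length in capitals. Bbx and Tgfb2 were found in both lines, Scd1, Elf2 and Vegfa in MBT2, and Sema4c in LM8, each short of 1 repeat copy; Prr3 in both lines, Otub1 in MBT2 and Nf2 in LM8 were short of 2 copies.
Bbx: aattgtaatgTTTTTTTTTTctaattgtaa
Tgfb2: aattatgtgAAAAAAAAAAAcatcaaaac
Scd1: ctgaatgagaTTTTTTTTTTccctttttat
Elf2: attttgaATATATATATATATATcatagct
Vegfa: tataaATATATATATATATATATATgttta
Sema4c: cctcattggcGGGGGGGGGtctcatggga
Prr3: tccgtggcggTTTTTTTTTgtgtgtgtgt
Otub1: tttcTTTTTTTTTTTTTTTTTTTTTTgtgt
Nf2: tccgAGAGAGAGAGAGAGAGAGAGAGgggg

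The second set holds frameshift deletions in coding exons, with the deleted stretch or the run that lost a base in capitals. They show runs of 7 bases beside a run of 2 bases in Col5a1 and a loss of 14 bases outside any repeat in Eif4g1. Col5a1, Atrx, Secisbp2l, Timm50 and Eif4g1 are from MBT2, and Tor1a and Psmd12 are from LM8.
Col5a1: cagcttgcttCCtaggctagga
Atrx: tggaggagggAAAAAAAgaattgggaa
Secisbp2l: agtatggagcAAAAAAAgttgcaggaa
Timm50: cagctatgccAAAAAAAttgcgctctg
Eif4g1: gcaactggATCCCTCCAGACTAcctggcat
Tor1a: agcatcttgcAAAAAAAgtcatcctaa
Psmd12: gatcattagcAAAAAAAttaataccaa

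The third set holds deletions at splice sites, as the deposited lists give them on the forward strand of GRCm39, with the deleted bases in capitals after the base that precedes them. They were chosen because each was in most reads of its site, and Nomo1 and Bglap3 hold the longest deletion of each line. The splice-site deletions of Mtbp and Smurf2 in LM8, which were in a minority of reads, are not shown. Ireb2 and Nomo1 are from MBT2, and Ints9, Spcs2, Csad and Bglap3 are from LM8.
Ireb2: gGTAC
Nomo1: gGTGCGTGTCCTCCCCAA
Ints9: gGTA
Spcs2: gTTCGA
Csad: cAGCCTGT
Bglap3: tAAGGGCTCTGGCCACTTAC

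Most of the deletions removed a single base. Losses of 1 base numbered 79 of 114 in MBT2 (69.3%, 59.97 to 77.6) and 81 of 126 in LM8 (64.3%, 55.3 to 72.6), and losses of 2 bases 17 and 24. Deletions of 3 or more bases numbered 18 and 21. The longest removed 17 bases, in Nomo1 of MBT2, and 19 bases, in Bglap3 of LM8; the shortest deletion beyond the limit of 20 had 21 bases in either line. A or T was the base lost in 67 of 79 single-base deletions in MBT2 (84.8%) and in 65 of 81 in LM8 (80.2%).

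Most of them shortened a tandem repeat as the caller annotated it, which counted repeats from 2 copies up. This held for 80 of 114 deletions in MBT2 (70.2%, 60.9 to 78.4) and 90 of 126 in LM8 (71.4%, 62.7 to 79.1). Repeats of 8 or more copies carried 26 of the MBT2 deletions and 23 of the LM8 deletions, and single-base runs of only 2 or 3 bases carried 19 and 27. The share to be found in repeats without any preference for them was not computed. By comparison, 97.0% of single-base insertions in MBT2 and 98.1% in LM8 lay in a repeat, but repeats of 8 or more copies held only 6 of 767 and 6 of 638 of them. The insertions gathered in runs of 6 or 7 bases, with 701 in MBT2 and 584 in LM8, where single-base repeats shortened by a deletion numbered 9 and 13. The authors' filtering included a repeat filter with a minimum length of 8, described below, so the counts at 8 or more copies may depend on it. The part of that filter was not tested, nor whether deletions and insertions differ in these shares.

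The share of reads that carried a deletion fell into separate ranges, high and low, with a gap between them. In MBT2, 30 of 114 deletions (26.3%, 18.5 to 35.4) were in 63.2% to 95.7% of reads, and 84 were in 0.268% to 28.6%. In LM8, 28 of 126 (22.2%, 15.3 to 30.5) were in 79.1% to 96.3% of reads, and 98 were in 0.870% to 35.2%. The gap ran between Ccdc50 and Col5a1 in MBT2 and between Celf1 and Cdc23 in LM8. Of listed variants of any type, 5 of 6361 in MBT2 and 1 of 5445 in LM8 lay between 40% and 60%, so the gap was not particular to short deletions. The lists had been filtered before deposit, and the part of that filtering in the gap was not tested. The median over all short deletions was 6.39% of reads in MBT2 (quartiles 3.54 and 68.5) and 7.95% in LM8 (3.71 and 21.5).

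**Figure D1:**
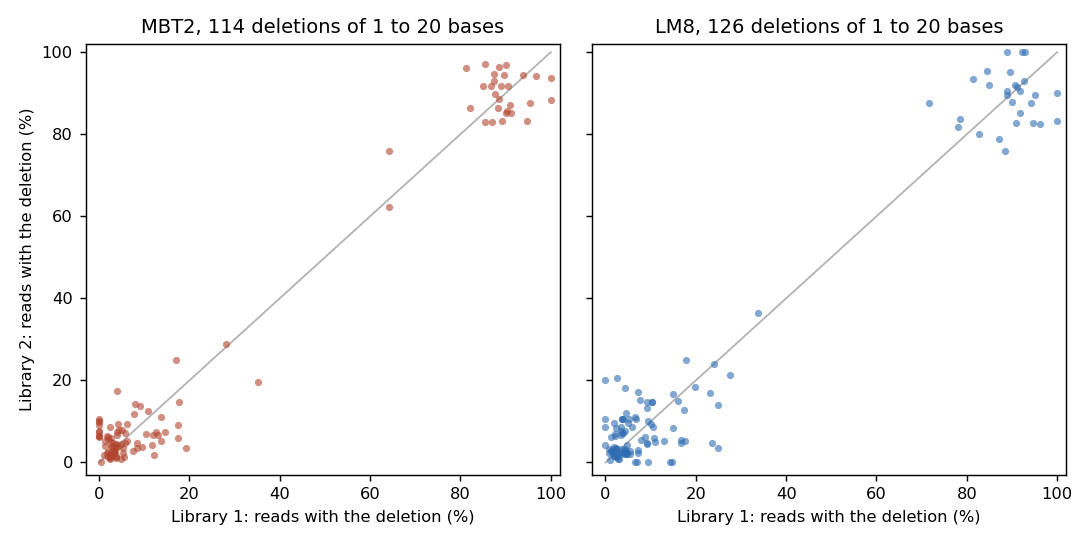
Share of reads with the deletion (%) in library 1 (x axis) and library 2 (y axis) for each of the 114 MBT2 deletions (left) and 126 LM8 deletions (right); the grey line marks equal shares. The points form a low and a high cloud in each line, with nothing between 40% and 60% in the summed reads, and every deletion of the high cloud was high in both libraries.

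No short deletion was called different between the duplicate libraries of a line. Fisher's exact test on the reads of the 2 libraries, two-sided and adjusted by Benjamini-Hochberg over all listed sites of a line, called 0 of 114 short deletions in MBT2 and 0 of 126 in LM8, against 0% of all 6361 MBT2 sites and 0% of all 5445 LM8 sites. At an unadjusted p under 0.05 it found 2 short deletions in MBT2 (1.75%), against 3.76% of all sites, and 4 in LM8 (3.17%), against 3.89%. The 2 in MBT2 were Scd1 and Tcea1-ps1, and the 4 in LM8 were Jarid2, Tead1, Nf2 and Tmem8b. The most uneven was Jarid2, a gene for a chromatin factor of the Polycomb system, with 39 of 547 reads (7.13%) in LM8 library 1 and 14 of 471 reads (2.97%) in LM8 library 2. The deletion had no read in MBT2 library 1 at 9 sites and in library 2 at 0 sites; in LM8 these counts were 4 and 5. All of these sites were in the low range.

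In these filtered lists, length of the repeat and number of copies lost went with the range. Among repeats of 8 or more copies, all 23 MBT2 deletions and 17 of 18 LM8 deletions that removed 1 copy were in the high range. The exception was Celf1, a gene for an RNA-binding protein, where 1 A of a run of 9 was missing in 67 of 198 reads (33.8%) and 79 of 217 reads (36.4%) of the LM8 libraries. Of the deletions that removed 2 or more copies of such a repeat, 0 of 3 in MBT2 and 0 of 5 in LM8 were in the high range. In shorter repeats, of 2 to 7 copies, 5 of 54 MBT2 deletions and 3 of 67 LM8 deletions were high, and outside repeats 2 of 34 and 8 of 36.

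These counts describe lists that had been filtered on the same properties. Per the file headers, the authors' filtering included a filter for contraction of short tandem repeats, with a minimum length of 8 and a slippage rate of 0.1. Low shares may thus be missing from long repeats before listing. The cut at 8 copies used here is the same number as that minimum, so filter and repeat length cannot be told apart. Copies equal bases only in single-base runs, so repeats of longer units would meet a minimum counted in bases below 8 copies. The filter's part in the pattern, for losses of 1 copy or of more, was not tested. In single-base runs of 10 to 12 bases, 19 of 19 MBT2 deletions and 13 of 13 LM8 deletions were high, with medians of 88.8% and 89.0% of reads. In runs of 6 or 7 bases, 1 of 9 and 1 of 13 were high, with medians of 4.12% and 4.22%.

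**Figure D2:**
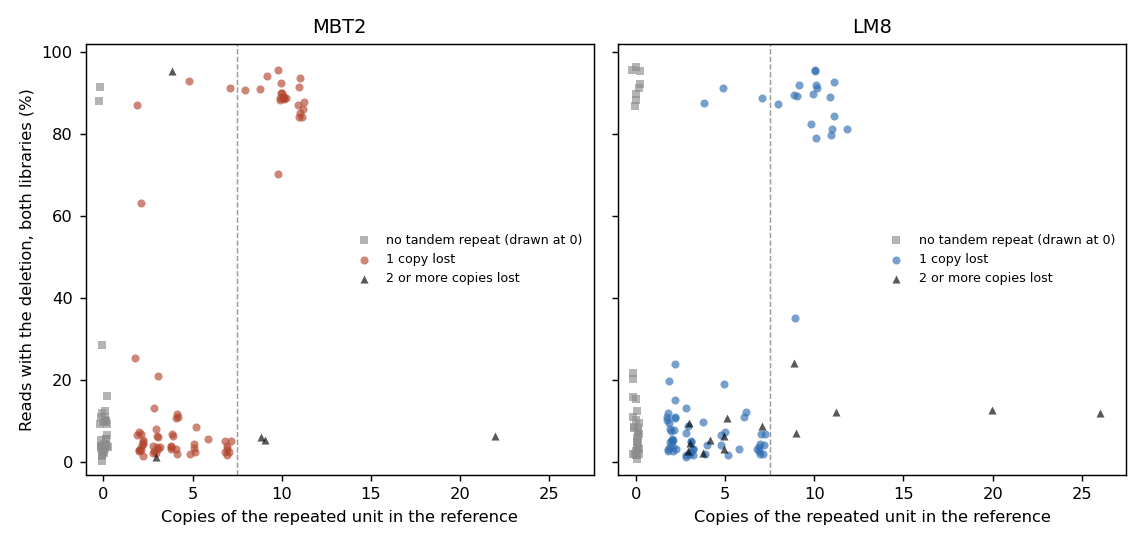
Share of reads with the deletion (%, both libraries summed) against the number of copies of the repeated unit in the reference, in MBT2 (left) and LM8 (right). Circles lost 1 copy, triangles lost 2 or more, grey squares lie outside repeats and are drawn at 0, and the dashed line separates repeats of 8 or more copies; right of it the circles sit high except for Celf1 in LM8 at 35.2%, and the triangles sit low.

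The high deletions in long repeats lay mostly in 3′ UTRs, 14 of 23 in MBT2 and 13 of 17 in LM8. The base lost from the single-base runs was A or T in 21 of 21 MBT2 sites and 16 of 17 LM8 sites. Read on the messenger strand, and with Cdc23 not counted, 11 such high runs in MBT2 3′ UTRs were A in 4 and T in 7. The 12 in LM8 3′ UTRs were A in 6, T in 5 and G in 1. Over the 16 high 3′ UTR deletions of MBT2 the distance from the end of the coding sequence ran from 259 to 5551 bases, and over the 15 of LM8 from 32 to 7307 bases.

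In MBT2, the gene of the angiogenic growth factor Vegfa lost 1 AT of a run of 10 in its 3′ UTR, 1538 bases past the coding sequence (chr17:46328245-46328246). The deletion was in 37 of 41 reads (90.2%) of library 1 and 24 of 28 reads (85.7%) of library 2. LM8 carried another Vegfa deletion close by, the loss of 2 A of 3 on the messenger strand (chr17:46328264-46328265), in 2 of 103 reads (1.94%) and 4 of 105 reads (3.81%). Vegfa and Coro7 were the genes that held a short deletion in both lists but none in common. Scd1, which encodes a stearoyl-CoA desaturase, was the lowest of the high MBT2 deletions in a long repeat, with 88 of 137 reads (64.2%) in library 1 and 113 of 149 reads (75.8%) in library 2.

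Other high MBT2 deletions in 3′ UTR runs were Akap7 and Akap1, which encode anchoring proteins of protein kinase A. The shares were 93.7% of 63 reads for Akap7 and 87.9% of 58 reads for Akap1. Elf2, an ETS transcription factor gene, lost 1 AT of 8 in 35 of 41 reads (85.4%) and 33 of 34 reads (97.1%). Dcun1d1, which acts in the attachment of NEDD8 to cullins, lost 1 base of a run of 11 in 60 of 73 reads (82.2%) and 51 of 59 reads (86.4%). All of these were in most reads of both libraries.

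In LM8, Sema4c, a semaphorin gene, was the one high deletion in a run of G on the messenger strand, 32 bases past the coding sequence. It was in 26 of 29 reads (89.7%) of library 1 and 20 of 21 reads (95.2%) of library 2. Med30, a subunit gene of the Mediator complex, lost 1 T of 9 in 127 of 143 reads (88.8%) and 105 of 116 reads (90.5%). Ror1, a receptor of Wnt5a, lost 1 A of 9 in 24 of 27 reads (88.9%) and 26 of 29 reads (89.7%). Both were high to a similar degree in both libraries.

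Tead1, a transcription factor of the Hippo pathway, held a high and a low deletion next to each other in LM8. The loss of 1 A of 8 (chr7:112505167-112505167) was in 66 of 81 reads (81.5%) and 71 of 76 reads (93.4%), and the loss of 1 G of the 3 just before it (chr7:112505164-112505164) was in 7 of 97 reads (7.22%) and 2 of 83 reads (2.41%). In MBT2 the downstream region of Tenm4 held such neighbours too. A copy of a 7-base unit was missing in 36 of 40 reads (90.0%) and 58 of 68 reads (85.3%), and 6 bases beside it in 4 of 44 reads (9.09%) and 10 of 73 reads (13.7%).

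The caller's population score, the negative log10 of the allele's frequency in a population resource per the file headers, was below its usual value of 2.02 for 17 of 30 high deletions in MBT2 (56.7%, 37.4 to 74.5). In LM8 it was so for 11 of 28 (39.3%, 21.5 to 59.4). Among low deletions it was so for 2 of 84 and 2 of 98. A lower score means a more frequent allele in that resource. No normal C3H/HeN sample entered the calls, so differences between this strain and the reference genome can be among these deletions, and they cannot be told apart from deletions of the lines.

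The lines had 14 short deletions in common, with the same position and alleles. They made up 12.3% of the MBT2 deletions (6.88 to 19.7) and 11.1% of the LM8 deletions (6.21 to 17.9). Single-base insertions were shared at 32.5% (29.2 to 35.9) and 39.0% (35.2 to 42.9), and substitutions at 7.26% and 8.21%. Longer insertions were shared at 7.99% and 9.35%, and deletions of 21 or more bases at 36.8% and 45.6%. Of all listed variants, 5100 of 6361 in MBT2 and 4184 of 5445 in LM8 were in 1 list alone. The shared deletions kept their range: 6 were high in both lines and 8 were low in both. A deletion missing from the other list can also lie where that line had too few reads.

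The 6 high ones lay in the 3′ UTRs of Bbx, Cnot4, Tgfb2, Cdc23 and Kif5b and upstream of a transcript of Blvra, in runs of 10 or 11 bases except for Kif5b with 7. Bbx, a high-mobility-group transcription factor gene, lost a base in 34 of 40 reads (85.0%) and 45 of 49 reads (91.8%) of MBT2, against 34 of 39 reads (87.2%) and 37 of 47 reads (78.7%) of LM8. Cnot4, a ubiquitin ligase of the CCR4-NOT complex, did so in 30 of 33 (90.9%) and 27 of 31 reads (87.1%) of MBT2, against 38 of 45 (84.4%) and 41 of 43 reads (95.3%) of LM8. Kif5b, a kinesin heavy chain gene, did so in 42 of 44 (95.5%) and 42 of 48 reads (87.5%) of MBT2, against 36 of 40 (90.0%) and 36 of 41 reads (87.8%) of LM8. In these 3 genes the libraries of the lines overlapped.

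Tgfb2, the gene of a transforming growth factor, had 15 of 17 (88.2%) and 19 of 22 reads (86.4%) with the loss in MBT2, against 64 of 82 (78.0%) and 58 of 71 reads (81.7%) in LM8. Cdc23, a subunit gene of the anaphase-promoting complex, had 54 of 61 (88.5%) and 70 of 79 reads (88.6%) in MBT2, against 33 of 46 (71.7%) and 35 of 40 reads (87.5%) in LM8. For these genes both MBT2 libraries were above both LM8 libraries, in Cdc23 by about a percentage point at the nearest. How often all shared sites separated in this way was not counted, and neither gene passed the limma test given below. Blvra, which encodes biliverdin reductase A, had few reads: 16 of 18 and 11 of 12 in MBT2, against 12 of 12 and 9 of 10 in LM8.

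The 8 low ones lay in the 3′ UTR of Prr3, downstream of transcripts of Nop58 and Cnot6, upstream of one of Tmem8b, in 3 genes named as pseudogenes and between genes. Nop58, a core protein gene of small nucleolar ribonucleoproteins, had the deletion in 19 of 329 (5.78%) and 17 of 352 reads (4.83%) of MBT2, against 11 of 264 (4.17%) and 5 of 225 reads (2.22%) of LM8. Cnot6, a deadenylase gene of the CCR4-NOT complex, had it in 6 of 49 (12.2%) and 1 of 53 reads (1.89%) of MBT2, against 3 of 39 (7.69%) and 5 of 33 reads (15.2%) of LM8. Both MBT2 libraries of Nop58 were above both LM8 libraries, whereas those of Cnot6 overlapped. Nop58 did not pass the limma test either. Prr3 had 5 of 59 (8.47%) and 2 of 55 reads (3.64%) in MBT2, against 2 of 52 (3.85%) and 5 of 47 reads (10.6%) in LM8. The pseudogene Tcea1-ps1 had 19 of 54 (35.2%) and 17 of 87 reads (19.5%) in MBT2, against 21 of 87 (24.1%) and 19 of 79 reads (24.1%) in LM8. Reads of pseudogenes can come from the parent gene or its other copies, so this value and those of Rpl18-ps2 and Rps16-ps2 are uncertain.

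No shared short deletion passed the test between the lines. limma on empirical logits of the allele fraction, fitted over the 1257 shared sites of all types with at least 10 reads in each library, called 0 of 14 short deletions at a Benjamini-Hochberg adjusted p under 0.05, against 1 site (0.0796%) in all, a longer deletion of Psd named after its value was seen. At an unadjusted p under 0.05 limma also found 0 of the 14, against 8.43% of all shared sites, and Fisher's exact test on summed reads called 0. The lowest adjusted p among the 14 was 0.778, for Nop58, with a logit difference of MBT2 minus LM8 of 0.53 ± 0.34 (SE, 2 libraries per line). Tgfb2 had a logit difference of 0.41 ± 0.30 (SE) and Cdc23 one of 0.61 ± 0.39 (SE), both with a limma adjusted p of 0.792. The difference was above 0 in 9 of the 14, with a median of 0.13, against a median of -0.07 over all shared sites. This depended on 1 library. Without MBT2 library 1 the difference was above 0 in 6 of the 14, with a median of -0.19, against -0.07 over all shared sites. Without each other library in turn the median of the 14 was 0.12 to 0.35. With 2 libraries per line an exact permutation test cannot go below p = 0.333.

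**Figure D3:**
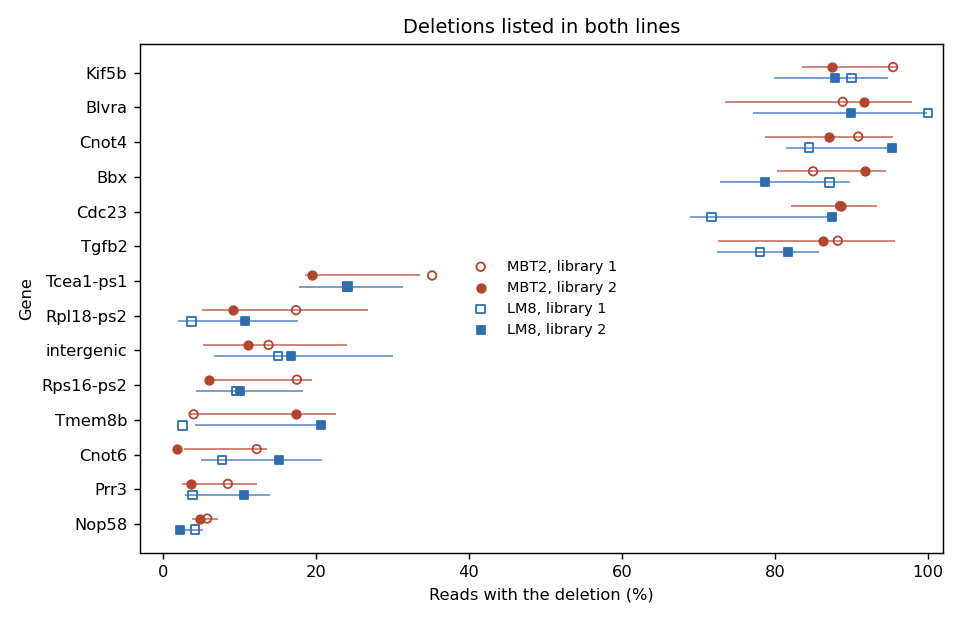
Share of reads with the deletion (%) for the 14 deletions listed in both lines, ordered by the MBT2 share; circles are MBT2, squares LM8, open symbols library 1, filled symbols library 2, and bars exact 95% intervals of the summed reads. Kif5b, Blvra, Cnot4, Bbx, Cdc23 and Tgfb2 sit above 70% in all 4 libraries, and the others sit below 36%.

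Frameshifts were the most frequent coding effect, with 26 of 114 deletions in MBT2 (22.8%, 15.5 to 31.6) and 19 of 126 in LM8 (15.1%, 9.33 to 22.5). All but 1 were in the low range. Leaving out that one, Col5a1, the MBT2 frameshifts were in 0.268% to 10.2% of reads with a median of 3.31%, and the LM8 frameshifts in 0.870% to 10.8% with a median of 3.75%. They rested on 3 to 12 reads per site in MBT2 and 2 to 19 reads in LM8. The deletion was seen in both libraries at 23 of 26 MBT2 sites and 15 of 19 LM8 sites.

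Col5a1 encodes a chain of type V collagen, which starts and limits the assembly of collagen fibrils. Its deletion of 1 C in exon 66 of 66 (chr2:27927019-27927019) was in 482 of 751 reads (64.2%) of MBT2 library 1 and 495 of 795 reads (62.3%) of MBT2 library 2. It was by far the most deeply read deletion of the high range. On the transcript the shift falls at L1837 of 1838 residues, and the new frame stops after residue 1836, so the last 2 residues are lost. The LM8 list had no short deletion in Col5a1. Among 13 collagen and matrix genes, LM8 had 1 in Col12a1, where 4 of 134 reads (2.99%) and 1 of 122 reads (0.820%) carried it.

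In the other MBT2 frameshifts the new stop often came well before the end of the protein. It came before the middle in 10 of 26 MBT2 and 7 of 18 LM8 frameshifts that could be placed on a transcript, and past the usual stop in 1 and 2. Coding runs of 7 single bases held 4 MBT2 and 2 LM8 frameshifts. Atrx, a chromatin remodeller that is lost in many human tumours, lost 1 A of 7 at R1282 in 3 of 80 (3.75%) and 4 of 90 reads (4.44%) of MBT2, with a new stop after residue 1301 of 2476. Timm50, a subunit of the mitochondrial import machinery, lost 1 A of 7 at I66 in 6 of 232 (2.59%) and 6 of 250 reads (2.40%), with a new stop after residue 124 of 353. The shares were low and alike in both libraries.

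Secisbp2l and Cc2d1a were the other MBT2 genes with a deletion in a coding run of 7. Secisbp2l had 5 of 179 (2.79%) and 6 of 161 reads (3.73%), and Cc2d1a, in a run of G, had 8 of 108 (7.41%) and 3 of 103 reads (2.91%). Upf2, a factor of nonsense-mediated decay, had a frameshift at E1205 of 1269 residues in 3 of 80 (3.75%) and 4 of 92 reads (4.35%). Zfp598, a ubiquitin ligase that acts on collided ribosomes, had 3 of 284 (1.06%) and 5 of 265 reads (1.89%).

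Eif4g1, the scaffold of the cap-binding complex of translation, showed the lowest share of all MBT2 deletions. A loss of 14 bases was in 6 of 1410 (0.426%) and 2 of 1571 reads (0.127%). Tapbpl, an editor of class I peptide loading, had 0 of 15 and 3 of 28 reads (10.7%). Ifnar2, a chain of the type I interferon receptor, was short of 4 bases in 2 of 53 (3.77%) and 2 of 55 reads (3.64%). The highest of the low MBT2 frameshifts was Znfx1, an RNA helicase gene, with 3 of 39 (7.69%) and 7 of 59 reads (11.9%).

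In LM8, Jag1, a ligand of Notch receptors, had the highest share, but in library 2 alone: a loss of 2 A of 5 was in 0 of 17 reads and 4 of 20 reads (20%), with a new stop after residue 704 of 1218. Psmd12, a subunit of the proteasome lid, lost 1 A of 7 at I209 in 7 of 483 (1.45%) and 12 of 431 reads (2.78%), with a new stop after residue 221 of 456. Tor1a, which encodes an ATPase of the endoplasmic reticulum, lost 1 A of 7 at K78 in 2 of 93 (2.15%) and 5 of 73 reads (6.85%), with a new stop after residue 80 of 333. Psmd12 and Tor1a were thus seen in both libraries.

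Tardbp, which encodes the RNA-binding protein TDP-43, was the most deeply read LM8 frameshift. A loss of 5 bases was in 7 of 634 (1.10%) and 4 of 630 reads (0.635%), with a new stop after residue 276 of 414. The ribosomal protein gene Rpl3 had 7 of 249 (2.81%) and 2 of 257 reads (0.778%), all on 1 strand and next to the read end. In Rpl26, another ribosomal protein gene, the shifted frame ran past the usual stop, to residue 157 against 145, with 3 of 23 and 1 of 19 reads. Ltbp3, which binds latent transforming growth factor, had 4 of 43 (9.30%) and 2 of 42 reads (4.76%).

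In-frame losses were few, 1 in MBT2 and 2 in LM8, and all were low. Ttl, the tubulin tyrosine ligase gene, lost 3 bases (GH195D) in 6 of 50 (12%) and 3 of 45 reads (6.67%) of MBT2. In LM8, Rplp2-ps1, which is named as a pseudogene, lost 3 bases (AE91E) in 8 of 76 (10.5%) and 8 of 92 reads (8.70%). The other LM8 in-frame loss removed 12 bases in Arhgef10 (chr8:15049356-15049367).

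**Figure D4:**
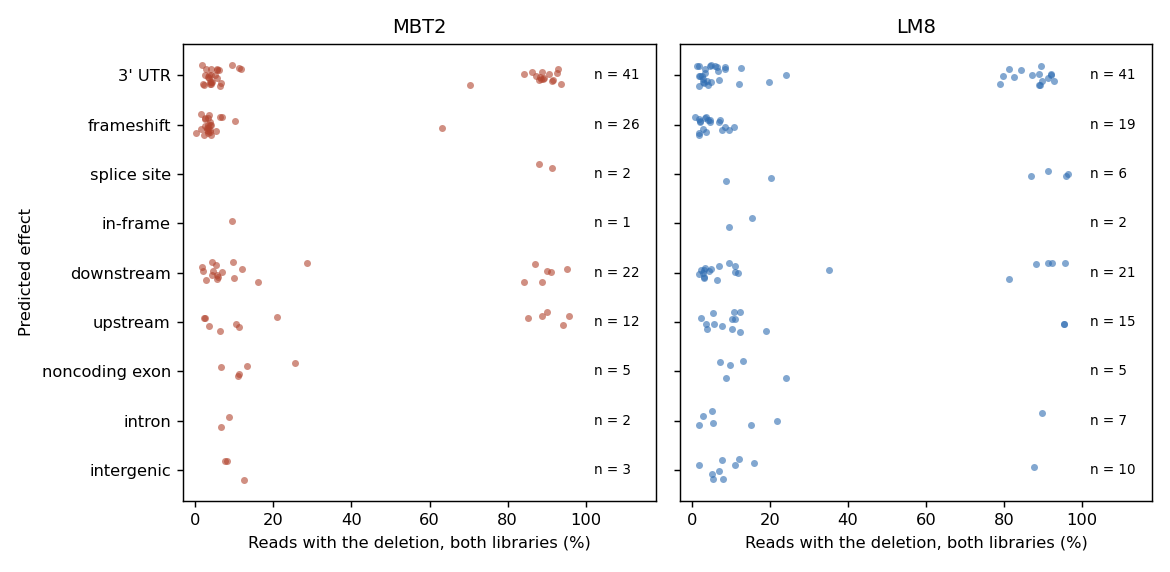
Share of reads with the deletion (%, both libraries summed) by predicted effect, in MBT2 (left) and LM8 (right), 1 point per deletion with the number of deletions at the right edge. 3′ UTR deletions occupy both ranges, frameshifts the low range except for Col5a1 at 63.2% in MBT2, and splice-site deletions mostly the high range.

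Deletions at splice sites numbered 2 in MBT2 and 6 in LM8, and 2 and 4 of them were high. Such bases are mostly outside the spliced RNA, so the shares cover only reads that reached them. In MBT2, Ireb2, an iron regulatory protein gene, lost 4 bases at a donor site (chr9:54789741-54789744) in 21 of 23 (91.3%) and 23 of 27 reads (85.2%). Nomo1, a membrane protein gene of the endoplasmic reticulum, lost 17 bases at a donor site (chr7:45720327-45720343) in 14 of 16 (87.5%) and 18 of 19 reads (94.7%).

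In LM8, Spcs2, a signal peptidase subunit gene, had the deepest splice-site deletion. The loss of 5 bases at an acceptor site (chr7:99494043-99494047) was in 120 of 132 (90.9%) and 111 of 134 reads (82.8%). Csad, of taurine synthesis, lost 7 bases at an acceptor site in 24 of 26 (92.3%) and 21 of 21 reads (100%). Ints9, of the Integrator complex, lost 3 bases at a donor site in 33 of 36 (91.7%) and 19 of 21 reads (90.5%). Bglap3, an osteocalcin-related gene, lost 19 bases at a donor site in 13 of 14 (92.9%) and 13 of 13 reads (100%).

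The low splice-site deletions of LM8 were in Mtbp and Smurf2. Mtbp, whose product binds Mdm2, had 13 of 56 (23.2%) and 8 of 47 reads. Smurf2, a ubiquitin ligase of transforming growth factor signalling, lost 5 of 7 GGC copies in 1 of 15 and 2 of 19 reads. None of the 6 high splice-site deletions lay in a tandem repeat. The long deletions of the lists, 21 bases or more, were likewise mostly high, with 78.7% in MBT2 and 76.7% in LM8 at or above 50% of reads.

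Outside exons and splice sites, 22 MBT2 and 21 LM8 deletions were annotated downstream of a gene, 12 and 15 upstream, 2 and 7 in introns, and 3 and 10 between genes. Of the upstream and downstream ones, 11 in MBT2 and 7 in LM8 were high, at 84.3% to 95.7% and 81.2% to 95.7% of reads. Use1, a SNARE protein gene, held the highest downstream share in MBT2, a loss of 3 G of 4 in 29 of 30 (96.7%) and 32 of 34 reads (94.1%). Ccn4, a secreted Wnt-induced protein gene, held the one high intronic deletion, 4 bases in 25 of 26 (96.2%) and 19 of 23 reads (82.6%) of LM8, with a median distance from the read end of 1 base. The genes named -ps for pseudogenes numbered 4 in MBT2 and 7 in LM8, all low, at 10.9% to 25.5% and 2.34% to 24.1% of reads.

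Read position and strand moved with the range. The median position of the deletion was within 5 bases of a read end for 1 of 30 high and 25 of 84 low deletions in MBT2, and for 2 of 28 high and 27 of 98 low deletions in LM8. Deletions outside repeats lay near a read end in 19 of 34 MBT2 cases (55.9%) and 16 of 36 LM8 cases (44.4%), and those in repeats in 7 of 80 (8.75%) and 13 of 90 (14.4%). Of the frameshifts, 6 of 26 in MBT2 and 10 of 19 in LM8 were near a read end. Reads with the deletion were on 1 strand alone for 1 of 30 high and 37 of 84 low deletions in MBT2, and for 3 of 28 and 40 of 98 in LM8; low sites have fewer such reads, with medians of 6 in both lines. The part of read position, strand and read number in the low range was not tested.

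**Figure D5:**
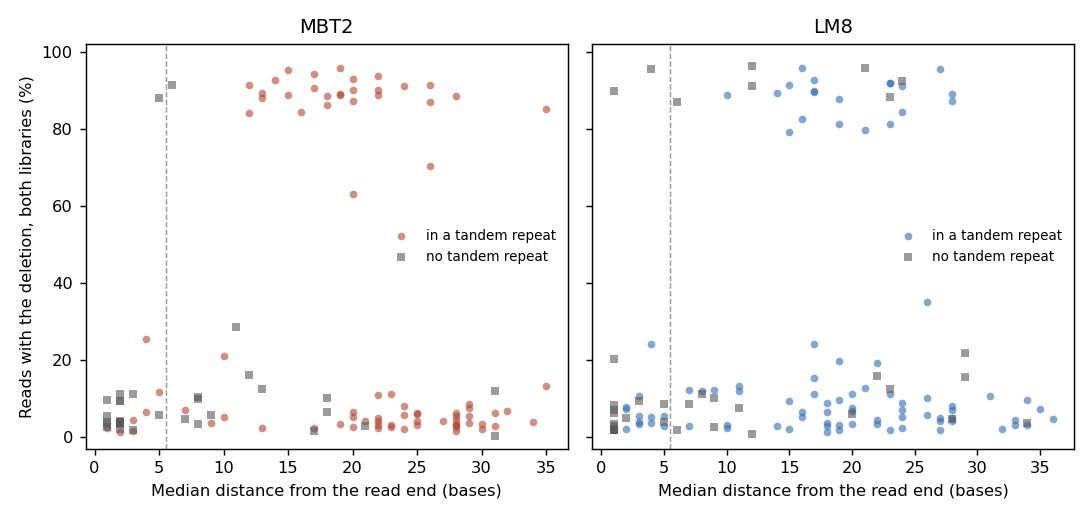
Share of reads with the deletion (%, both libraries summed) against the caller's median distance of the deletion from the read end (bases), in MBT2 (left) and LM8 (right); circles lie in a tandem repeat, grey squares do not, and the dashed line marks the limit of 5 bases. Left of the line nearly all points are low, with 1 high deletion in MBT2 and 2 in LM8.

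Of all genes with any listed variant, 109 of 3933 in MBT2 (2.77%) and 114 of 3495 in LM8 (3.26%) had a short deletion annotated to them. Upstream and downstream deletions are included, here and in the lists below. Few or none would thus be found in a short list of any kind. Of 20 genes whose frames are known to shift in human tumours that lack mismatch repair, 11 in MBT2 and 6 in LM8 carried a listed variant, and none held a short deletion. The 13 mismatch repair genes held none either, with 5 and 4 of them carrying any variant. Of 30 cancer driver genes, Atrx in MBT2 and Ep300 and Nf2 in LM8 held one, out of 18 and 16 with any variant. Ep300, a histone acetyltransferase gene, had a loss of 2 A of 5 downstream of a transcript in 3 of 46 (6.52%) and 0 of 48 reads. Nf2, the merlin gene, lost 2 of 11 copies of its 3′ UTR repeat in 5 of 20 (25%) and 1 of 29 reads (3.45%), the second most uneven of the low LM8 deletions by Fisher's exact test at p = 0.0349, adjusted p = 1.

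Short deletions made up a smaller share of the MBT2 list than of the LM8 list, but the difference did not pass adjustment. They were 1.79% of 6361 variants in MBT2 (1.48 to 2.15) and 2.31% of 5445 in LM8 (1.93 to 2.75), an odds ratio of 0.770. Fisher's exact test, two-sided and over 5 types of variant, gave p = 0.0496 and a Benjamini-Hochberg adjusted p of 0.124; it called 0 of the 5 types, and 2 had an unadjusted p under 0.05. Among private variants alone the odds ratio was 0.727 and passed (exact test, adjusted p = 0.0421), and without MBT2 library 2, which leaves out the variants seen there alone, it was 0.733 (adjusted p = 0.0330). The latter setting dropped MBT2 variants alone. Short deletions were not the only type to pass among private variants. Deletions of 21 or more bases made up 25.1% of these in MBT2 and 21.2% in LM8 (Fisher's exact test, adjusted p = 7.07e-05). The shares of substitutions, 57.6% against 61.5%, passed as well (same test, adjusted p = 0.000464), and those of insertions did not. Shares of 1 list depend on each other, so this result was not particular to short deletions. With at least 1 read of the variant in each library, asked of both lines alike, the odds ratio was 0.747 (exact test, adjusted p = 0.173). Of the other settings that kept both libraries of each line, none passed (exact test, adjusted p of 0.113 to 0.305). The test counts listed variants, 1 list per line, and not repeated cultures.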

How the data were processed

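The authors deposited 1 variant list per line in variant call format 4.2, called jointly over both libraries with Mutect 2.2 without a normal sample, filtered and selected with GATK 4.1.5.0, per the file headers; the submitters' processing notes give GATK 4.3.0. The deposited columns hold reads per allele, another unit than counts per gene. Per the file headers, the filters allowed 2 events per region and 1 alternative allele and asked for a median base quality of 20 and mapping quality of 30. Effects were annotated with SnpEff 5.1d for GRCm39, per the file headers. The submitters' processing notes name bcl2fastq 2.17.1.14, cutadapt 1.9.1, STAR 2.7.9a and GRCm39.

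Shares of reads are alternative over reference plus alternative reads. Coordinates are GRCm39, counted from 1; residues and sequences come from GENCODE M21 transcripts, matched by transcript identifier, annotated position and bases, with no GRCm38 coordinate used (26 of 26 MBT2 and 18 of 19 LM8 frameshifts placed). Near a read end means a median distance of at most 5 bases. The deletions, named genes and lists were chosen with earlier results of these data known. Named were all shared deletions, per line the 15 private ones with the highest share, up to 20 coding or splice-site ones, the 5 longest, and any in the gene lists, from which the text takes examples. The planned count model was not run on the reads per allele. It was replaced by limma 3.58.1 (R 4.3.3) on logits with 0.5 reads added to each allele. Duplicates and variant types were compared with Fisher's exact test. The limma and duplicate tests were tested on simulated data. The software was Python 3.11.15 with pandas 2.3.3, numpy 2.4.6, matplotlib 3.10.9 and scipy 1.17.1. Alternatives varied depth minimums, the test, the caller's score and single libraries. Some results and sequences are not reported here.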

Additional observations from a re-analysis of the deposited data

How the results depend on the processing

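Over 25 results and 212 alternative settings, 187 kept their direction and side of the threshold or stayed within the spread. The count of shared short deletions called between the lines was 0 under every setting run, and the duplicates gave 0 calls under both depth minimums. The count of all shared sites called was 1 with limma; it was 5 with at least 20 reads in each library, 92 with Fisher's exact test on summed reads, and 0 to 1 without 1 library in turn. Under settings chosen after the data were seen it was 0 with 0.25 reads added to each allele, 5 with 1 read added, and 85 with limma weighted by reads. With the replicate block it was 4, and 0 of the 14 short deletions; the numbers pair nothing that the labels state, and the deviations of same-numbered libraries had a Pearson correlation of -0.0199 over 1257 sites. The planned fits with count models were not run, so their calls are not known.

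None of the 14 logit differences (MBT2 minus LM8) was called, and 8 changed sign without 1 library, with ranges of -0.26 to 0.53 for Tcea1-ps1, -0.12 to 0.84 for Kif5b, -0.49 to 0.62 for Rps16-ps2, -1.56 to 0.094 for Cnot6, -0.63 to 0.33 for Prr3, -0.84 to 1.12 for Tmem8b, -1.26 to 0.12 for Blvra and -0.82 to 0.35 for Cnot4. With weights by reads, Tmem8b was at -0.12 and Cnot4 at 0.013. The odds ratio of short deletions was 0.727 for private variants (exact test, adjusted p = 0.0421) and 0.733 to 0.791 without 1 library in turn. It did not pass under the other settings that kept both libraries of each line (exact test, adjusted p of 0.113 to 0.305). Among private variants, the shares of longer deletions and of substitutions passed too. The caller's own allele fraction gave medians of 8.22% in MBT2 and 10.5% in LM8, and sites of at least 40 reads gave 6.94% in LM8; without 1 library the medians ran from 5.74% to 6.83% in MBT2 and 7.18% to 8.45% in LM8. The causes were not tested. Depth limits the low range: 36 of 114 MBT2 and 40 of 126 LM8 deletions rested on 5 or fewer reads.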
